A study of Homo sapiens with 6 samples.

Results

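The intestinal identity transcription factors considered here are 7 genes, CDX1, CDX2, HNF4A, GATA6, SOX9, KLF5 and ASCL2. They were chosen by name, with earlier results of these data known, because their proteins set or keep the character of intestinal epithelium. All 7 have a row among the 24580 rows of the deposited expression table. They were followed in LoVo-HM, which the labels call a high-metastatic subline of LoVo, and in LoVo, an established human colorectal cancer line labelled wildtype, neither of them treated. Each group had 3 RNA-seq libraries, 6 in all. Levels are FPKM, fragments scaled to transcript length and to the mapped fragments of the library, so that levels of different genes are set side by side per length. The labels do not state how LoVo-HM was derived, whether it is 1 clone or whether the libraries came from separate cultures, so the p-values measure only the spread between these libraries.

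As background, CDX1 and CDX2 are caudal-type homeodomain proteins, and CDX2 directs embryonic endoderm to an intestinal and away from a gastric fate. HNF4A, a nuclear receptor, and GATA6, a zinc-finger protein, act with CDX2 at the genes of absorptive cells. KLF5, a zinc-finger protein of the Krüppel-like family, is active in dividing crypt cells, SOX9, an HMG-box protein, in crypt progenitors and Paneth cells, and ASCL2, a basic helix-loop-helix protein driven by Wnt signalling, in crypt stem cells.

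Library totals were 424624 to 428265 FPKM in LoVo-HM, against 434108 to 439082 FPKM in LoVo, and the read depth is unknown. Genes averaging 0.5 FPKM or more were tested, and 6508 of these 14487 genes (44.9%) passed an adjusted p of 0.05 in limma, 21.8% higher and 23.1% lower, and 55% of the tested genes had groups without overlap. The labelled tissue was checked against its markers. Epithelial keratins were abundant, with KRT18 at 859 ± 20.1 FPKM in LoVo-HM, against 549 ± 10.95 FPKM in LoVo (SD, n = 3 each). Defining intestinal markers were absent or nearly so: VIL1, the villin of the brush border, and MUC2, the goblet cell mucin, were listed at 0 in all 6 libraries, and CDH17, the liver-intestine cadherin, reached at most 0.0361 FPKM. The crypt stem cell receptor LGR5 reached at most 0.234 FPKM. TP63 and SOX2, counted in the combined foregut and stomach list below, averaged 36.1 and 32.7 FPKM in LoVo, against 0.296 and 4.46 FPKM in LoVo-HM. In LoVo both stood above CDX2, at 8.39 FPKM. The libraries were not compared with a reference profile of LoVo.

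HNF4A and KLF5 each have a pair of transcription starts in RefSeq (build GRCh38.p14). A gene-level FPKM does not show which start was used, so the bases before these starts are shown, except the downstream KLF5 start. Upstream sequences were found for 4 of the 7 genes, CDX2, HNF4A, GATA6 and KLF5, and the 3 windows shown are those that hold no annotated exon. They cover 250 bases each on the plus strand, at chr20:44355449-44355698 (before the upstream HNF4A start), chr20:44400989-44401238 (before the downstream HNF4A start) and chr13:73054726-73054975 (before the upstream KLF5 start). Capitals mark letters matching the sites searched on both strands. CDX sites were searched as TTTATG and, in a second form, as TTTATT, and HNF4 sites as CAAAGNNCA. GATA sites were taken as NGATAA, SOX sites as AACAAT and KLF sites as CCNCNCCC. The E-box that ASCL proteins bind was taken as CAGCTG and TCF/LEF sites as CTTTGA. Neighbouring or overlapping matches run together.
HNF4A upstream start: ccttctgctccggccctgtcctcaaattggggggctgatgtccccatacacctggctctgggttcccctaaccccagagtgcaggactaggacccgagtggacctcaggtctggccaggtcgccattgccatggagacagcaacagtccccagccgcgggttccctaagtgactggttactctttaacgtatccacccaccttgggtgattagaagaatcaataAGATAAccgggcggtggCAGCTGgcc
HNF4A downstream start: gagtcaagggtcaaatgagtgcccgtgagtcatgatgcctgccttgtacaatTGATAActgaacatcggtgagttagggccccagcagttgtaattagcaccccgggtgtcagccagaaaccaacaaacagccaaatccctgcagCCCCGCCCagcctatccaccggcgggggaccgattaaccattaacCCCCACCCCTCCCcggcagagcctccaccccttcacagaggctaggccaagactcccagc
KLF5 upstream start: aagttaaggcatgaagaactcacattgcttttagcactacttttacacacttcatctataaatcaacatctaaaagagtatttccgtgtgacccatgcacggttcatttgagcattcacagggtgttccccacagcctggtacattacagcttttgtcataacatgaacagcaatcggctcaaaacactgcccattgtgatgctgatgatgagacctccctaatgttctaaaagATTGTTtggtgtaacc
Before the upstream HNF4A start, GATA letters lay 26 to 21 bases away and ASCL letters 9 to 4 bases away. The downstream HNF4A start had GATA letters 198 to 193 bases before it and 3 KLF matches, of which the last pair overlap. The upstream KLF5 start had 1 SOX match, 16 to 11 bases before it. The window before the downstream KLF5 start, not shown, has 213 of its 250 bases in annotated exons. It held KLF letters 177 to 170, 50 to 43 and 48 to 41 bases before that start, and no SOX letters. Windows of the same length before all 35116 RefSeq starts held GATA letters in 20.4%, ASCL in 14.0%, KLF in 53.4% and SOX in 9.0%. CDX, HNF4 and TCF/LEF letters, which 22.5%, 4.4% and 11.2% of all windows held, were not found in the 3 windows shown. Among the windows not shown, that of CDX2 held TCF/LEF letters 238 to 233 and CDX letters 180 to 175 bases before its start. That of GATA6 held CDX letters 30 to 25 bases before its start. A match is a description of letters and not a binding site.

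Of the 7 factors, 5 were high enough to test, and all 5 passed the threshold, 2 higher and 3 lower in LoVo-HM. Of all tested genes, 44.9% passed (21.8% higher and 23.1% lower). The factors were chosen with earlier results of these data known, so their count beside that share is a description and not a test. SOX9 and CDX2 rose, and KLF5, HNF4A and GATA6 fell. HNF4A reached the limit for testing through LoVo alone, and the other 4 averaged over 0.5 FPKM in both groups. The groups did not overlap for these 5 genes, as they did not for 55% of all tested genes. Of the 14487 tested genes, 950 (6.56%) passed with at least a 2-fold change on the log2(FPKM + 1) scale, and SOX9, KLF5 and HNF4A were among them. CDX1 was listed at 0 in all 6 libraries, and ASCL2 lay below the limit for testing. Differences below subtract LoVo from LoVo-HM as log2(FPKM + 1) and carry their SE; this scale shrinks the change of low genes, and adjusted p-values are limma's with Benjamini-Hochberg adjustment over all tested genes. An exact two-sided permutation test of 3 libraries against 3 cannot go below p = 0.1, the value it gave for each of the 5 factors.

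**Figure D1:**
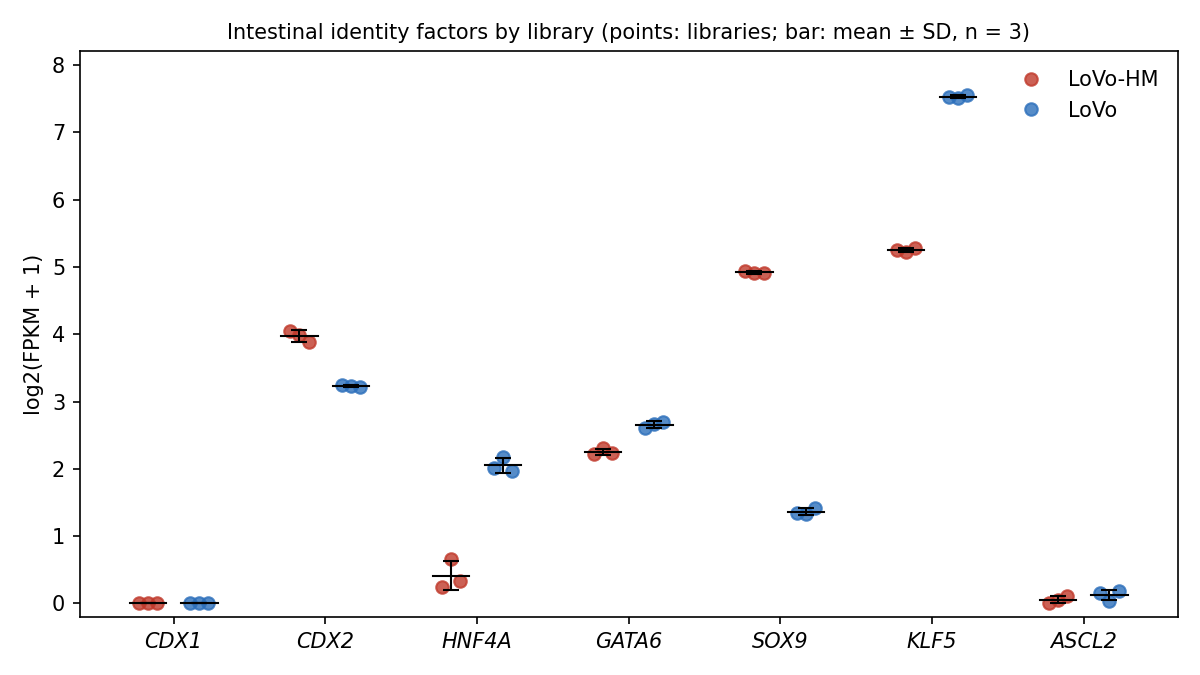
FPKM of the 7 factors in each library as log2(FPKM + 1), with LoVo-HM in red and LoVo in blue; points are libraries and bars the mean ± SD of 3 libraries. SOX9 and CDX2 lie higher in LoVo-HM, KLF5, HNF4A and GATA6 lie lower, and CDX1 and ASCL2 lie at or near 0 in both groups.

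Among the homeodomain factors, CDX2 (ENSG00000165556, chromosome 13, 27962137 to 27971139, GRCh38) had 15.6, 14.9 and 13.7 FPKM in LoVo-HM, against 8.53, 8.34 and 8.28 FPKM in LoVo. Every LoVo-HM library was above every LoVo library, and the LoVo-HM values were the more spread. The coefficient of variation was 6.52% in LoVo-HM and 1.54% in LoVo. The ratio of means was 1.76 and the log2 difference 0.74 ± 0.065 (limma adjusted p = 3.13e-05, higher in 3 of 3 libraries). CDX1 (ENSG00000113722, chromosome 5, 150166795 to 150184558), its close relative in the colon, and the third family member CDX4 were listed at 0 in all 6 libraries, so CDX2 was the CDX gene with a level above 0 in this table.

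HNF4A (ENSG00000101076, chromosome 20, 44355700 to 44434596), the nuclear receptor of enterocytes and hepatocytes, had 0.187, 0.574 and 0.259 FPKM in LoVo-HM, against 3.04, 3.52 and 2.90 FPKM in LoVo. All LoVo-HM libraries were low, the second being the highest of them, and none came near the LoVo range. The ratio of means was 9.28-fold lower in LoVo-HM. The log2 difference was -1.64 ± 0.131 (limma adjusted p = 1.68e-05). Adding 0.1 instead of 1 before taking logs gave -2.98. The coefficient of variation of HNF4A was 60.6% in LoVo-HM and 10.3% in LoVo. HNF4G, the second HNF4 gene, was below the limit for testing, at 0.0914 ± 0.0969 FPKM in LoVo-HM, against 0.439 ± 0.170 FPKM in LoVo (SD, n = 3 each).

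GATA6 (ENSG00000141448, chromosome 18, 22169443 to 22202528), the GATA factor of endoderm, had 3.68, 3.94 and 3.69 FPKM in LoVo-HM, against 5.07, 5.37 and 5.47 FPKM in LoVo. The groups were separate but close, and the ratio of means was 1.41-fold lower in LoVo-HM. The log2 difference was -0.40 ± 0.073 (limma adjusted p = 0.0022), the smallest size among the 5 tested factors. Antisense transcripts share exonic bases with GATA6, 240 bases (6.08% of its exonic bases) for GATA6-AS1 at its start and 321 bases (8.14%) for another at its end. The strand setting of the counting is not given in the sources used here, so reads from these stretches cannot be told apart from antisense reads. The exons of the other 6 factors overlap no annotated exon of another gene.

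SOX9 (ENSG00000125398, chromosome 17, 72121020 to 72126420), the crypt progenitor factor, had 29.8, 28.9 and 28.99 FPKM in LoVo-HM, against 1.53, 1.5 and 1.68 FPKM in LoVo. Each group was tight and the gap between them wide. The ratio of means was 18.6 and the log2 difference 3.56 ± 0.064 (limma adjusted p = 1.76e-09, 95% interval 3.41 to 3.70). By absolute log2 difference SOX9 ranked 55 among the 14487 tested genes.

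KLF5 (ENSG00000102554, chromosome 13, 73054976 to 73077542), the crypt proliferation factor, had 37.0, 36.3 and 37.8 FPKM in LoVo-HM, against 184, 180 and 187 FPKM in LoVo. Replicates lay within a few percent of one another in both groups, with coefficients of variation of 2.1% in LoVo-HM and 1.75% in LoVo. The ratio of means was 4.96-fold lower in LoVo-HM, and the log2 difference -2.28 ± 0.040 (limma adjusted p = 1.71e-09). KLF5 ranked 193 by absolute log2 difference. By mean level among tested genes it ranked 1859 in LoVo-HM and 228 in LoVo.

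ASCL2 (ENSG00000183734, chromosome 11, 2268495 to 2270952), the stem cell factor, had 0, 0.0411 and 0.0778 FPKM in LoVo-HM, against 0.119, 0.0291 and 0.132 FPKM in LoVo. The groups overlapped. When fitted without a filter on low values, its log2 difference was -0.07 ± 0.053 (limma adjusted p = 0.375). ASCL4, a relative known from skin, was listed at 0 in all 3 LoVo-HM libraries, against 0.646, 0.519 and 1.09 FPKM in LoVo.

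**Figure D2:**
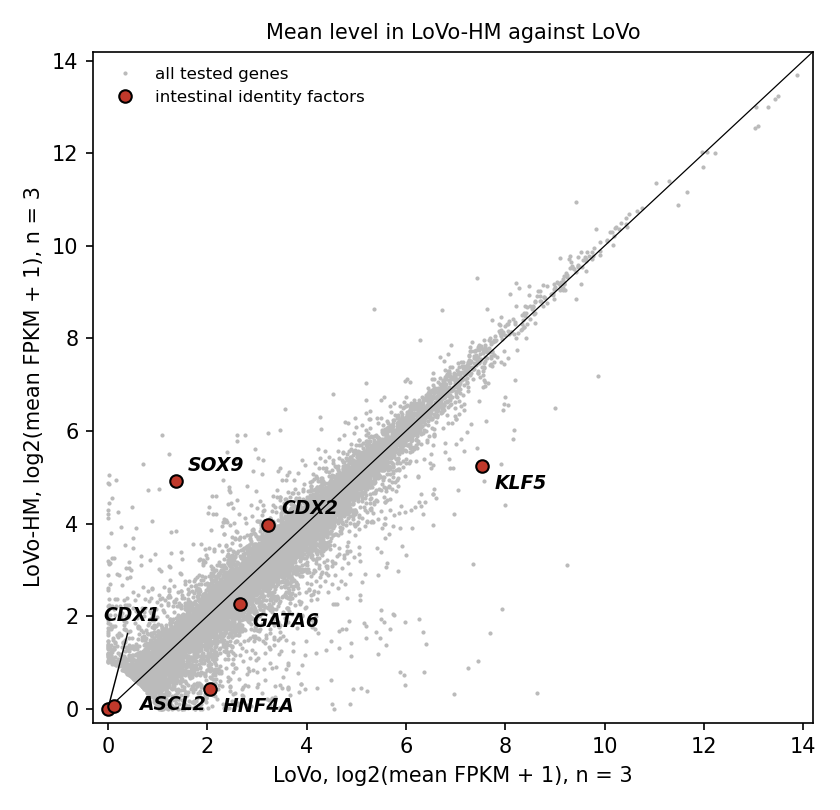
Mean level in LoVo-HM (vertical) against LoVo (horizontal) as log2(mean FPKM + 1), 3 libraries each, for all 14487 tested genes in grey and the 7 factors in red, with the line of equal level. SOX9 lies far above the line and KLF5 and HNF4A far below it, whereas CDX2 lies above and GATA6 below it at smaller distances.

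The order of the factors by level differed between the lines. In LoVo-HM it was KLF5 (37.0 FPKM), SOX9 (29.2), CDX2 (14.7), GATA6 (3.77), HNF4A (0.340), ASCL2 (0.0397) and CDX1 (0). In LoVo it was KLF5 (184 FPKM), CDX2 (8.39), GATA6 (5.30), HNF4A (3.15), SOX9 (1.57), ASCL2 (0.0934) and CDX1 (0). Neighbours in each order had no overlapping library values, except ASCL2 and CDX1 in LoVo-HM, which shared a value of 0. SOX9 thus stood at position 2 in LoVo-HM and at position 5 in LoVo. Within single libraries, KLF5 exceeded SOX9 by 1.24, 1.26 and 1.31 times in LoVo-HM, against 120, 120 and 111 times in LoVo. The ratio of CDX2 to HNF4A was 83.4, 26.0 and 52.8 in LoVo-HM and 2.81, 2.37 and 2.85 in LoVo, and its wide spread in LoVo-HM follows the low HNF4A values.

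The families of these factors were read from a list of 17 relatives, of which 6 were tested. All 6 passed the threshold, 4 higher and 2 lower, where 44.9% of all tested genes passed. Their median log2 difference was 0.55 beside 0.003 over all tested genes. GATA2, known from blood progenitors, had 70.5, 64.3 and 57.9 FPKM in LoVo-HM, against 10.3, 9.99 and 9.84 FPKM in LoVo (2.56 ± 0.073, limma adjusted p = 2.23e-08). GATA3, known from T cells and from breast and urothelial epithelium, averaged 17.5 ± 1.46 FPKM in LoVo-HM, against 5.26 ± 0.211 FPKM in LoVo (SD, n = 3 each, log2 difference 1.56 ± 0.074). Both GATA2 and GATA3 rose where GATA6 fell. GATA4 and GATA5, which accompany GATA6 in endoderm, were listed at 0 in all 6 libraries, as was GATA1. The ratio of GATA2 to GATA6 was 19.2, 16.3 and 15.7 in LoVo-HM and 2.04, 1.86 and 1.80 in LoVo.

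Among the Krüppel-like relatives, KLF4, a factor of differentiated and goblet cells, fell with KLF5, at 8.55 ± 0.345 FPKM in LoVo-HM, against 14.4 ± 0.631 FPKM in LoVo (log2 difference -0.69 ± 0.063). KLF3 fell by 0.57 and KLF6 and KLF2 rose by 0.56 and 0.54 on the log2 scale. KLF5 exceeded KLF4 by 4.39, 4.38 and 4.23 times in LoVo-HM, against 12.2, 13.0 and 13.1 times in LoVo. The SOX9 relatives SOX8 and SOX10 were under the limit for testing and did not exceed 0.168 FPKM.

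**Figure D3:**
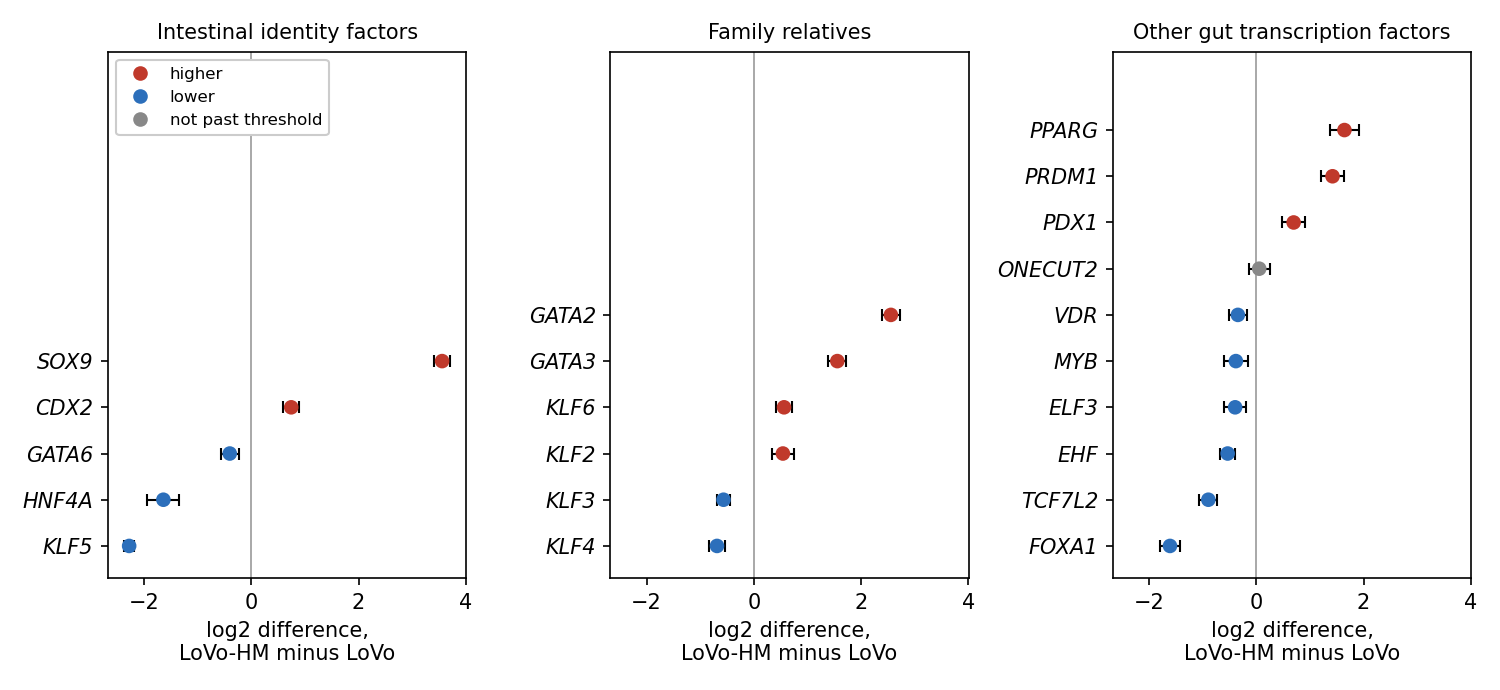
Log2 difference (LoVo-HM minus LoVo, log2(FPKM + 1) scale) with its 95% interval for the tested intestinal identity factors, their family relatives and other gut transcription factors (10 of the 11 tested). SOX9 has the largest increase shown at 3.56 and KLF5 the largest decrease at -2.28, and ONECUT2 is the gene that did not pass the threshold.

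Other transcription factors of the gut were taken from a list of 22, of which 11 were tested. Of these, 4 rose, 6 fell and 1 did not pass (90.9% called, against 44.9% of all tested genes). Their median log2 difference was -0.34. PPARG, a fat-sensing nuclear receptor also found in colonocytes, averaged 15.4 ± 2.25 FPKM in LoVo-HM, against 4.25 ± 0.577 FPKM in LoVo (SD, n = 3 each, 1.64 ± 0.118, limma adjusted p = 8.81e-06). PRDM1, a repressor of the fetal intestine in mice, rose by 1.42 ± 0.095. The duodenal and pancreatic homeodomain factor PDX1 rose by 0.70 ± 0.096. FOXA1, a pioneer factor of endoderm, fell to 5.78 ± 0.526 FPKM in LoVo-HM, against 19.7 ± 1.29 FPKM in LoVo (-1.61 ± 0.080, limma adjusted p = 7.72e-07). TCF7L2, the main partner of beta-catenin in intestinal epithelium, fell by 0.90 ± 0.074 (adjusted p = 2.04e-05 in limma). The epithelial ETS factors EHF and ELF3, the vitamin D receptor VDR and the progenitor factor MYB fell by 0.54, 0.40, 0.34 and 0.38. ATOH1, which opens the secretory lineage, was under the limit for testing at no more than 0.179 FPKM, and NEUROG3, which opens the endocrine lineage, was listed at 0 in every library.

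Genes that CDX2 and HNF4A are known to activate in enterocytes were mostly at or near 0 in both lines. Of 35 such genes 6 were tested, 17 were under the limit for testing (none above 0.554 FPKM) and 12 were listed at 0 in all 6 libraries, among them the digestive enzyme genes SI and ALPI and the lipid carrier genes FABP1 and APOB. Of the 6 tested, 2 rose, 3 fell and 1 did not pass (83.3% called, against 44.9% of all tested genes). Among the 2 that rose, 1 reached the limit through LoVo-HM alone. CLDN7, a claudin, had 35.9, 40.7 and 30.9 FPKM in LoVo-HM, against 91.1, 87.4 and 92.3 FPKM in LoVo (-1.32 ± 0.088, limma adjusted p = 5.53e-06). The groups were well apart and CLDN7 made up most of the summed level of the list, 52.8 to 65.0 FPKM in LoVo-HM, against 109 to 114 FPKM in LoVo. The peptidase DPP4 and the brush border scaffold USH1C fell by 0.43 ± 0.098 and 0.33 ± 0.079. Thus CDX2 was measured at 8.28 FPKM or more in every library while VIL1, SI and FABP1 were listed at 0 in every library.

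**Figure D4:**
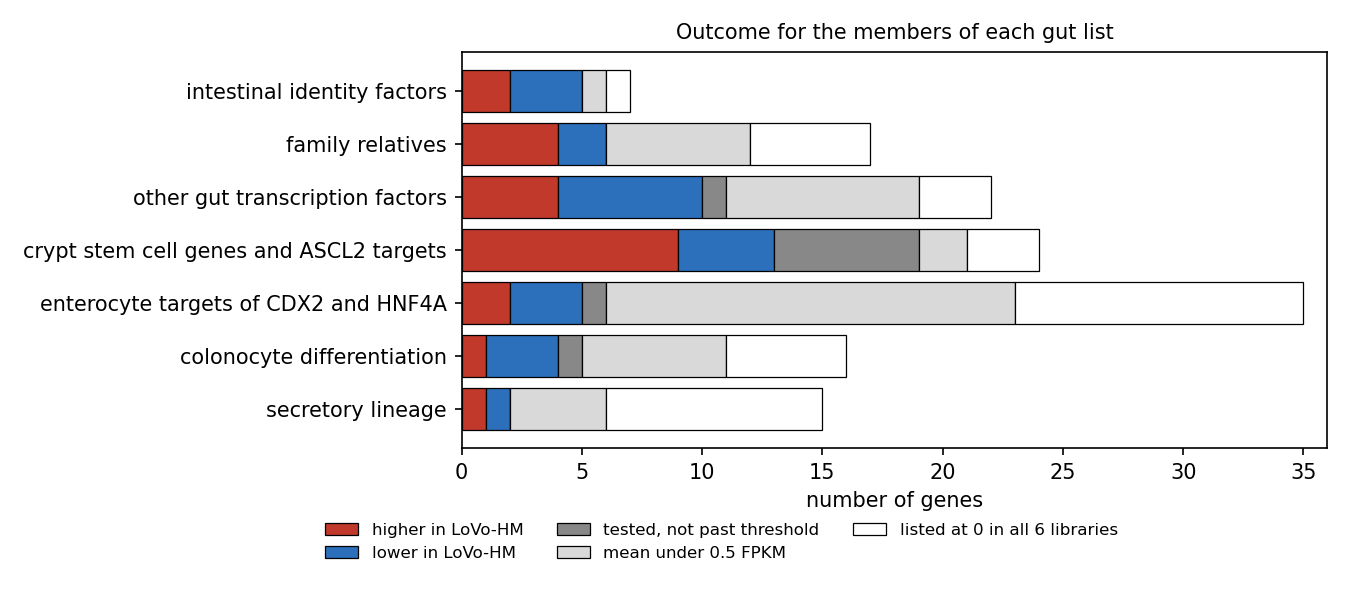
Number of genes in each gut list that were higher or lower in LoVo-HM, did not pass the threshold, had a mean under 0.5 FPKM or were listed at 0 in all 6 libraries. In the enterocyte, colonocyte and secretory lists most genes were under the limit for testing or at 0, whereas 19 of 24 crypt genes were tested.

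Of 16 markers of colonocyte differentiation 5 were tested, of which 1 rose, 3 fell and 1 did not pass. The share called was 80%, against 44.9% of all tested genes. KRT20, CEACAM1 and TSPAN8 reached the limit for testing through 1 group alone, the other group averaging under 0.5 FPKM, so these 3 had to differ and the counts of the list say little. With a minimum mean of 2 FPKM, 1 gene of the list was called. KRT20, the keratin of mature colonocytes, had 3.07, 2.39 and 3.30 FPKM in LoVo-HM, whereas every LoVo library listed it at 0. The carbonic anhydrase gene CA2 fell to 9.68 ± 0.618 FPKM in LoVo-HM, against 28.3 ± 1.06 FPKM in LoVo (-1.45 ± 0.063, adjusted p = 3.45e-07 in limma). The adhesion molecule CEACAM1 and the tetraspanin TSPAN8 fell by 1.07 and 1.13 on the log2 scale, to 0.105 and 0.138 FPKM in LoVo-HM, against 1.32 and 1.55 FPKM in LoVo. The secretory list had 2 tested genes among 15, with 9 listed at 0 in every library. POU2F3, a factor known from tuft cells, averaged 17.5 ± 1.23 FPKM in LoVo-HM, against 3.32 ± 0.351 FPKM in LoVo (SD, n = 3 each, 2.10 ± 0.084). DCLK1, also in the secretory list, was listed at 0 in every library. AGR2, a disulfide isomerase of mucus cells, fell by 2.46 ± 0.117, having reached the limit for testing through LoVo alone.

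Crypt genes and targets of ASCL2 were measured far more often. Of 24 genes 19 were tested, of which 9 rose, 4 fell and 6 did not pass. The share called was 68.4%, against 44.9% of all tested genes, and the median log2 difference was 0.22. The summed level of the list was 451 to 467 FPKM in LoVo-HM, against 280 to 285 FPKM in LoVo. AXIN2 (130 FPKM in LoVo-HM, against 35.8 FPKM in LoVo) and CD44 (106 FPKM, against 46.4 FPKM) weighed most in the LoVo-HM sum. TNFRSF19, a Wnt-induced receptor of crypt cells, had 20.2, 20.5 and 22.1 FPKM in LoVo-HM, against 4.31, 4.83 and 4.53 FPKM in LoVo (1.98 ± 0.067, limma adjusted p = 6.82e-08). The Wnt feedback inhibitor AXIN2 and the surface receptor CD44 rose by 1.83 and 1.17. The ubiquitin ligase RNF43, which clears Wnt receptors, fell by 3.00, whereas ZNRF3 of the same list rose by 0.96 ± 0.066. OLFM4, a marker of stem cells, was listed at 0 in all 6 libraries. Cartilage genes, which SOX9 activates in chondrocytes, had 2 tested genes of 12, and both rose, where 21.8% of all tested genes rose. SOX5, the partner of SOX9 in cartilage, had 9.21, 8.13 and 8.99 FPKM in LoVo-HM, against 0.551, 0.502 and 0.698 FPKM in LoVo (2.63 ± 0.090, limma adjusted p = 7.52e-08), and MATN3, a matrix protein, rose by 0.84. The cartilage collagen COL2A1 reached at most 0.0766 FPKM.

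Markers of other cell types moved as well. Of 14 foregut and stomach genes 4 were tested, and all 4 fell, where 23.1% of all tested genes fell. TP63, SOX2, NKX2-1 and PAX9 changed by -4.84, -2.62, -0.74 and -0.52, TP63 having reached the limit through LoVo alone. TP63 and SOX2 averaged 36.1 and 32.7 FPKM in LoVo and made up most of the summed level of the list there. Their list summed to 10.5 to 12.01 FPKM in LoVo-HM, against 77.6 to 81.3 FPKM in LoVo, while the stomach genes TFF1, GKN1 and GKN2 were listed at 0 in every library. The part of this difference in the intestinal factors was not tested. Hepatocyte and endothelial lists had 0 tested genes, and the hepatocyte list summed to at most 0.532 FPKM in LoVo-HM, against 0.258 FPKM in LoVo. The endothelial list summed to at most 0.475 FPKM in LoVo-HM, against 0.237 FPKM in LoVo. ALB, AFP and PECAM1 were listed at 0 in every library. In the list of 8 pancreatic and biliary duct genes KRT7 rose by 0.52 and PTF1A was listed at 0. SPP1 had 1.84, 1.12 and 1.55 FPKM in LoVo-HM, where alone it reached the limit, against 0 in every LoVo library. In the fibroblast list ACTA2 fell by 0.86 and COL1A1 did not pass, and COL1A2 was listed at 0. In the immune list CD68, a lysosomal protein also present outside macrophages, fell by 0.32 and PTPRC was listed at 0. Among 5 general epithelial markers, EPCAM and CDH1 fell by 1.29 and 2.46, KRT19 and KRT18 rose by 1.88 and 0.65, and KRT8 rose by 0.17, a direction that turned to -0.0080 with quantile normalization.

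Chromosomal neighbours were looked up for each factor as the nearest protein-coding gene of the table on either side, a choice made after the values were seen. PDX1 lies 35.9 kb from CDX2 and had 2.83 FPKM in LoVo-HM, against 1.37 FPKM in LoVo, so that it rose beside CDX2. URAD, 6.6 kb on the other side, was too low to test. The nearest tested neighbours of HNF4A, SOX9 and KLF5 did not pass the threshold: TTPAL (-0.08 ± 0.075, 41.3 kb from HNF4A), SLC39A11 (-0.03 ± 0.075, 519.5 kb from SOX9) and PIBF1 (-0.20 ± 0.0998, 38.5 kb from KLF5). MIB1, 298.5 kb from GATA6, rose by 0.19 ± 0.062 where GATA6 fell. The neighbours of CDX1 and ASCL2 on both sides were too low to test, as CDX1 and ASCL2 were.

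The genes whose profile over the 6 libraries lay closest to each tested factor, by Euclidean distance of log2(FPKM + 1), were also listed. PTRHD1 was closest to CDX2 at a distance of 0.16, with 15.4 FPKM in LoVo-HM, against 8.69 FPKM in LoVo, followed by SHROOM3 and CFD. FOXO4, SLC45A3 and PTK2B were closest to GATA6, at 0.14 to 0.17. SLAIN1, ZNF385B and SEMA5A were closest to HNF4A, at 0.31 to 0.37. APCDD1 was closest to SOX9 at 0.70, with 26.0 FPKM in LoVo-HM, against 1.03 FPKM in LoVo, and ALPP and WNT5A followed at 1.01 and 1.04. PERP was closest to KLF5 at 0.59, with 29.1 FPKM in LoVo-HM, against 189 FPKM in LoVo, followed by CAV2 and MYOF. The nearest profiles of SOX9 and KLF5 lay farther off than those of CDX2 and GATA6.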

How the data were processed

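Total RNA was made into Illumina TruSeq libraries, per the labels' protocols, and the authors deposited their FPKM values as 1 table, with 1 column per library. The submitters' processing notes name GRCh38 as genome build. Aligner, counter, annotation and strand setting are not given in these sources. Low values (under 0.3 FPKM) of 15 pairs of libraries showed no steps worth 1 read: the commonest bin of 0.05 log2 units held at most 3.35% of the ratios, so the depth is unknown and no counting intervals are given. No count model was used, since FPKM values are not counts.

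Values were used as log2(FPKM + 1) for the 14487 genes averaging 0.5 FPKM or more. The groups were compared with limma 3.58.1 (R 4.3.3), with its intensity trend, two-sided, with Benjamini-Hochberg adjustment over all tested genes and a threshold of 0.05. Of the rows, 19974 had an identifier found in GENCODE 29, which gave positions, and 4606 had no gene symbol and stayed in the fit. Upstream sequences are RefSeq's (GRCh38.p14).

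The factors and lists were chosen with earlier results of these data known, so the lists are described by counts and medians without a test. Named were all 7 factors, tested relatives and gut factors, up to 4 genes of each other list with the smallest p, markers listed at 0, 10 fixed genes (EPCAM, KRT8, KRT18, CDH1, CDH17, VIL1, KRT20, LGR5, MUC2 and SOX2) and the 3 nearest profiles. Some list genes that the counts include are not reported here. ZNRF3, further low or unchanged list genes and the chromosomal neighbours were named after their values were seen. Alternatives were other pseudocounts, filters, scalings and variance fits, leaving out rows without a symbol, a replicate block, and each library left out in turn.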

Additional observations from a re-analysis of the deposited data

How the results depend on the processing

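CDX2, SOX9, KLF5 and GATA6 kept their direction and their side of the threshold in all 17 alternatives, and HNF4A in the 16 that tested it (its mean is under 2 FPKM). Log2 differences ranged from 0.71 to 0.81 for CDX2, 3.54 to 4.14 for SOX9, -2.31 to -2.26 for KLF5, -0.48 to -0.31 for GATA6 and -2.98 to -1.56 for HNF4A, with the largest limma adjusted p at 0.0106, for GATA6. The count over all genes was 5484 to 7002. The settings tested 11669 to 20954 genes, so these counts are not shares of the same number. The highest count came from rescaling each library to a common, larger FPKM total, with which 16261 genes were tested. With a minimum mean of 2 FPKM, 1 colonocyte gene, 1 cartilage gene and 0 duct genes were called, since fewer genes were tested. The fibroblast count was 3 without a filter and 1 to 2 when each library was left out, and the immune count was 0 with quantile normalization and 0 to 1 when each library was left out; the cause was not tested. Quantile normalization reversed KRT8 (-0.0080) and SLC26A2 (0.0294). The calls of EPHB3, PROM1 and CD68 were lost in some settings and EPHB2, RGMB, NKD1, BMI1 and COL1A1 were called in some. No pairing by replicate number was detected: deviations of same-numbered libraries correlated at -0.007 to 0.026, and the count with the replicate block was 6459. These values cannot show whether same-numbered libraries were prepared together. Unknown read depth limits what can be said of genes near 0.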
